A study of Rattus norvegicus with 49 samples.

Results

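Propylene glycol phenyl ether (PPH) is a glycol ether solvent, and the transporters described here are the membrane proteins that carry drugs, conjugates and bile constituents into and out of liver cells. The 10 genes were fixed by name: the efflux pumps Abcc2, Abcc3, Abcc4, Abcb1a, Abcb1b, Abcb4 and Abcg2, and the uptake carriers Slco1a1, Slco1a4 and Slco1b2. Every probe set whose platform annotation gave exactly 1 of these symbols was taken, which yielded 12 probe sets for 9 of the 10 genes, out of 31042 probe sets that are not array controls. Abcb1b had no probe set of its own. It was covered only by 1370583_s_at, which is annotated to Abcb1a and Abcb1b together and was therefore left out of the counts.

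The study dosed male Harlan Sprague Dawley rats, assigned at 6 to 8 weeks of age, by gavage on 5 consecutive days, in corn oil at a volume of 5 mL/kg, and took the organs on the day after the last dose. Liver and kidney RNA was hybridised to Affymetrix Rat Genome 230 2.0 arrays, 1 RNA sample per array. The liver groups were 5 arrays at 0 mg/kg and 4 arrays each at 1, 10, 100, 500 and 1000 mg/kg, 25 in all. The kidney groups were the same except that 500 mg/kg had 3 arrays, 24 in all. A 2000 mg/kg group was killed moribund before its last dose and gave no tissue. The sample labels and the title name PPH, whereas the treatment text names the agent as MCHM, and the labels were followed. The animals carried no stated genetic change, and all were males on 1 diet. The numbered samples are described as biological replicates.

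Levels are log2 values from robust multi-array averaging (RMA), which turns the probes of a probe set into 1 number per array. The median log2 value of an array ranged from 5.21 to 5.31 for liver arrays; for kidney arrays it ranged from 5.33 to 5.37. No pair of arrays of an organ correlated below 0.985. The hepatocyte markers (6 of 6 measured) averaged 13.9 in every liver control array, and the kidney tubule markers (6 of 6 measured) averaged 11.5 to 11.8 in the kidney controls, so each organ carried its own defining markers. No detection call accompanied the values, so it is unknown how far a low level lies above background. Levels are not compared between genes or between organs, because a probe set's level also depends on its probes and because joint normalisation of both organs is not stated in the sources used here. In whole organs, fewer cells of a type and less RNA per cell cannot be told apart.

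Efflux pumps of the ATP-binding cassette (ABC) class use ATP to move substrates out of cells. In the hepatocyte, Abcc2 (Mrp2), Abcb1a and Abcb1b (P-glycoprotein), Abcb4 and Abcg2 (Bcrp) sit in the canalicular membrane and pump into bile, while Abcc3 (Mrp3) and Abcc4 (Mrp4) sit in the basolateral membrane and pump back toward blood. Slco1a1, Slco1a4 and Slco1b2 encode organic anion transporting polypeptides (Oatp) that take bile acids, hormone conjugates and drugs up from blood. The receptors PXR (Nr1i2) and CAR (Nr1i3) and the oxidative stress factor Nrf2 (Nfe2l2) are known regulators of several of these genes. In the RefSeq annotation of rat assembly GRCr8, Abcb4, Abcb1b and Abcb1a follow one another on chromosome 4, and Slco1b2, Slco1a4 and Slco1a1 do so elsewhere on chromosome 4. Abcc2 lies on chromosome 1, Abcc3 on chromosome 10, Abcc4 on chromosome 15 and Abcg2 on chromosome 4.

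Upstream sequence is shown for Abcc2 and Abcc4, the pumps with the largest liver changes after Abcc3 at 1000 mg/kg. RefSeq promoter windows (GRCr8, 250 bases before to 50 bases after a start site) were at hand for 9 of the 10 genes, all but Abcc3. Only the 250 upstream bases are printed, 5′ to 3′ on the gene's own strand. Capitals mark matches, on either strand, to the half-site AGTTCA of PXR and CAR elements, the HNF1 half-site GTTAAT and the core GCGTG of the xenobiotic response element. The Abcc2 window is chr1:252613625-252613874 on the plus strand. The Abcc4 window is chr15:102181365-102181614 on the minus strand, and its start site lies inside the span that the same annotation gives the gene. The 250 printed Abcc4 bases lie inside that span too, and the full window continues with the letters atg. Whether these bases are promoter or transcribed sequence was not tested.
Abcc2: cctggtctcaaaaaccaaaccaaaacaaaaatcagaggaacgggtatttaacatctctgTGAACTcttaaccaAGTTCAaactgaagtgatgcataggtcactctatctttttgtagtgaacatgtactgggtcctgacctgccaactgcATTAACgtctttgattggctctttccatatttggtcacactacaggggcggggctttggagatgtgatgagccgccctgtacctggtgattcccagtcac
Abcc4: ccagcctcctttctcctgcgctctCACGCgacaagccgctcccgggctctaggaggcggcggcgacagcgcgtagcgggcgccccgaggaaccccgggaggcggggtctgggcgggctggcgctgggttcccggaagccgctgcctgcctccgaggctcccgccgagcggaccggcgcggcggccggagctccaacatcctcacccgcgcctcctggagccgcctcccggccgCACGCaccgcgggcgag

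The Abcc2 stretch was 45.2% G and C and held AGTTCA on both strands and 1 HNF1 half-site. The Abcc4 stretch was 77.6% G and C and held GCGTG in 2 places, both on the opposite strand. Over the full windows of 300 bases, AGTTCA occurred in 3 of the 9 transporter windows and in 14.5% of 33469 RefSeq windows, GTTAAT in 2 of 9 and 7.45%, and GCGTG in 4 of 9 and 29.7%. The core of the antioxidant response element, TGACNNNGC, occurred in 1 of 9, Abcc2, as TGACATAGC starting at base 18 after the start site, and in 12.1% of all windows. The 4 motifs were searched on both strands and share no letters in the matches printed. They are letter matches and say nothing of binding. Like the Abcc4 window, the full windows of Abcb1a, Abcb4 and Abcg2 lie wholly inside the spans annotated for these genes. Whether the windows sit at the start sites used in liver or kidney was not tested.

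Of the transporters, Abcc3 rose in liver at the highest dose. At 1000 mg/kg, 1 of the 12 probe sets passed an adjusted p of 0.05 (limma, Benjamini-Hochberg over all 31042 probe sets), where 0.3% of all probe sets did. That probe set, 1369698_at for Abcc3, was higher, as were 0.226% of all probe sets. None of the 12 passed in the lower direction, where 0.0741% of all probe sets did. The median change of the 12 was -0.01 on the log2 scale, and over all probe sets it was 6.51e-05, so the middle of the list lay near that of the array. Unadjusted p was under 0.05 for 3 of the 12, against 9.53% of all probe sets.

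Abcc3 exports glucuronide and other conjugates across the basolateral membrane. In liver its log2 levels in the 5 control arrays were 5.51, 5.39, 4.86, 5.09 and 6.09. At 1 mg/kg they were 5.76, 5.66, 5.89 and 5.62, and at 10 mg/kg 5.35, 5.59, 5.30 and 5.47. These low doses overlapped the controls, whose own spread was wider than that of any other liver group. At 100 mg/kg the levels were 5.87, 5.64, 5.55 and 5.70, at 500 mg/kg 5.88, 6.32, 5.81 and 5.76, and at 1000 mg/kg 6.65, 7.32, 7.53 and 7.13. All 4 arrays at 1000 mg/kg lay above every other liver array, whereas at 500 mg/kg 1 array lay above the highest control and 3 lay between the controls.

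**Figure D1:**
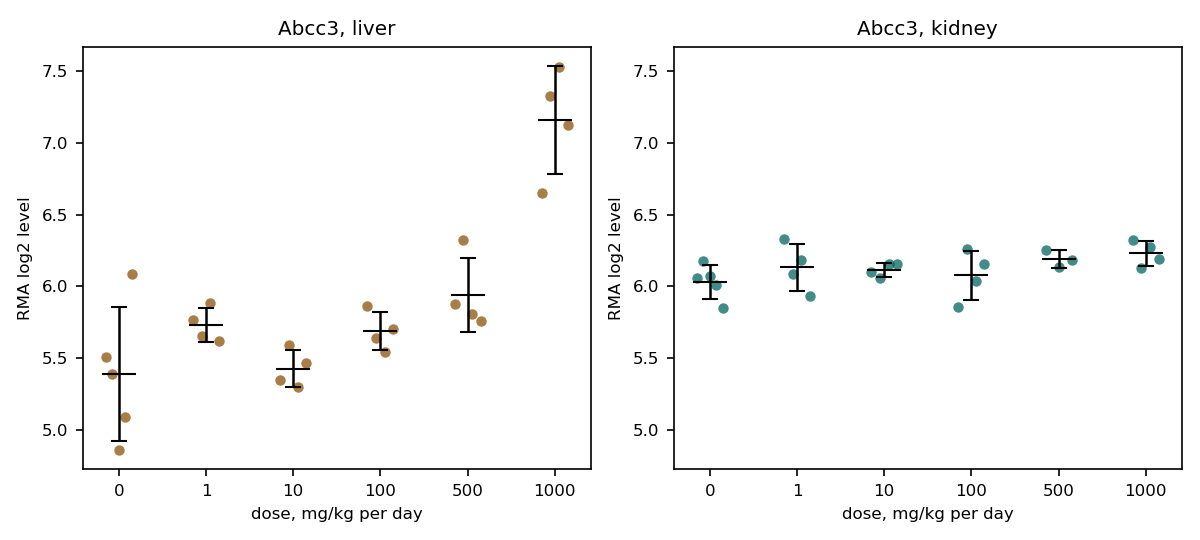
RMA log2 level of Abcc3 (1369698_at) by dose in mg/kg per day, in liver (left) and kidney (right), with 1 point per array and bars for the group mean ± SD. The liver arrays at 1000 mg/kg, from 6.65 to 7.53, stand above all other liver arrays, while the kidney arrays at 1000 mg/kg, from 6.13 to 6.32, overlap the kidney controls.

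The mean liver level of Abcc3 went from 5.39 ± 0.47 (SD, n = 5) in controls to 7.16 ± 0.38 (SD, n = 4) at 1000 mg/kg. The difference was 1.77 on the log2 scale (SE 0.18, 95% interval 1.39 to 2.15), or 3.41-fold, with an adjusted p of 1.19e-05 in limma. In order of their means the liver groups ran 0, 10, 100, 1, 500 and 1000 mg/kg, at 5.39, 5.43, 5.69, 5.73, 5.94 and 7.16. Neighbours in this order differed by less than the larger of their SDs except from 10 to 100 mg/kg, whose arrays still overlapped, and from 500 to 1000 mg/kg, whose arrays did not.

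That step was 1.22 on the log2 scale (95% interval 0.82 to 1.62), with an adjusted p of 0.0562 in limma, just outside the threshold, in a comparison where 0.0% of all probe sets passed. It passed in 9 of 17 alternative treatments of the data, with adjusted p from 0.00807 to 0.553 over the 17. Leaving out replicate 2 at 500 mg/kg (adjusted p = 0.0139) or replicate 1 at 1000 mg/kg (adjusted p = 0.00807) brought it past the threshold. Against controls, the level at 500 mg/kg was 0.55 higher (95% interval 0.17 to 0.93), with an unadjusted p of 0.0061 and an adjusted p of 0.386 in limma. This comparison did not pass in any of 18 alternatives, whose adjusted p ran from 0.215 to 0.609.

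Over all 25 liver arrays, the fitted slope of Abcc3 was 0.27 per step on a scale of dose ranks 0 to 5 (95% interval 0.17 to 0.37, adjusted p = 0.0134 in limma). Ranks count the unequal gaps between doses as equal. The group means did not rise evenly: the mean at 10 mg/kg was below that at 1 mg/kg, and the step from 500 to 1000 mg/kg was 1.22. Abcc3 was the 1 transporter probe set of 12 to pass for trend, against 0.232% of all probe sets. The call was lost without replicate 3 (adjusted p = 0.0524) or replicate 4 (adjusted p = 0.0522) of the 1000 mg/kg group. No transporter passed at the lower liver doses. All 12 missed the threshold at 1 and 100 mg/kg, where 0.0% of all probe sets passed, at 10 mg/kg, where 0.00322% passed, and at 500 mg/kg, where 0.0129% passed. At an unadjusted p under 0.05 the transporter counts in limma were 0 at 1 mg/kg (7.82% of all probe sets), 1 at 10 mg/kg (7.58%), 0 at 100 mg/kg (7.53%), 2 at 500 mg/kg (8.29%) and 2 between 500 and 1000 mg/kg (5.26%).

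Abcc3 is also carried by bile duct cells. The cholangiocyte markers (3 of 4 measured) averaged 5.94 to 6.35 in the control livers and 5.89 to 6.55 at 1000 mg/kg. All 3 were higher, by 0.07 to 0.25, and none was called. The macrophage and Kupffer cell markers (5 of 5 measured) averaged 8.23 to 8.66 in controls and 7.89 to 8.27 at 1000 mg/kg, with all 5 lower and none called. The hepatocyte markers averaged 13.88 to 13.90 in controls and 13.76 to 13.89 at 1000 mg/kg, with 2 of 6 higher and none called. In limma, unadjusted p was under 0.05 for 0 of the 3 cholangiocyte, 3 of the 5 macrophage and 1 of the 6 hepatocyte markers. Of all probe sets, 9.53% reached it. The part of cell composition in the Abcc3 difference was not tested.

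Abcc2, the canalicular exporter of bilirubin glucuronides and glutathione conjugates, was low in every liver at 1000 mg/kg but did not pass the test. Its liver log2 levels were 10.14, 10.27, 10.30, 10.67 and 10.41 in controls and 9.87, 9.99, 9.99 and 9.96 at 1000 mg/kg. All 4 arrays at 1000 mg/kg lay below the lowest control. At 500 mg/kg the levels were 10.07, 10.33, 10.16 and 10.24, at 100 mg/kg 10.06, 10.32, 10.07 and 10.35, at 10 mg/kg 10.86, 10.37, 10.34 and 10.50, and at 1 mg/kg 10.40, 10.42, 10.56 and 10.55. The groups at 1 to 500 mg/kg overlapped the controls, with 1 array at 10 mg/kg above them, 2 arrays at 100 mg/kg below them and 1 array at 500 mg/kg below them.

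The mean Abcc2 level was 10.36 ± 0.20 (SD, n = 5) in control livers and 9.95 ± 0.05 (SD, n = 4) at 1000 mg/kg. The difference was -0.40 on the log2 scale (95% interval -0.63 to -0.18), or 0.755-fold, with an unadjusted p of 9.06e-04 and an adjusted p of 0.123 in limma. It passed in 2 of 18 alternatives, when dim probe sets were left out (adjusted p = 0.0473) and with a variance trend and robust moderation (adjusted p = 0.0383). Over those 18 the adjusted p ran from 0.0383 to 0.283. The slope with dose rank was -0.09 per step (95% interval -0.13 to -0.04, adjusted p = 0.0902 in limma) and passed in 6 of 33 alternatives. Leaving out replicate 1 of the controls or replicate 1 at 10 mg/kg was enough to bring the slope past the threshold.

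Abcc4, a basolateral exporter of bile acids and cyclic nucleotides, had liver levels of 5.95, 5.84, 6.10, 5.55 and 6.25 in controls and 6.40, 6.06, 6.62 and 6.52 at 1000 mg/kg. Of the 4 arrays at 1000 mg/kg, 3 lay above the highest control and 1 among the controls, so the groups overlapped. The difference was 0.46 (95% interval 0.18 to 0.75), or 1.38-fold, with an unadjusted p of 0.00276 and an adjusted p of 0.191 in limma. The mean was 5.94 ± 0.27 (SD, n = 5) in controls and 6.17 ± 0.19, 6.12 ± 0.25, 6.09 ± 0.10, 6.20 ± 0.18 and 6.40 ± 0.24 (SD, n = 4 each) from 1 to 1000 mg/kg. Each of the 5 dosed groups had a higher mean than the controls they share, and each step between neighbours in the order 0, 100, 10, 1, 500 and 1000 mg/kg was smaller than the larger of their SDs. In none of 18 alternatives did Abcc4 pass at 1000 mg/kg, with adjusted p from 0.0966 to 0.519.

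**Figure D2:**
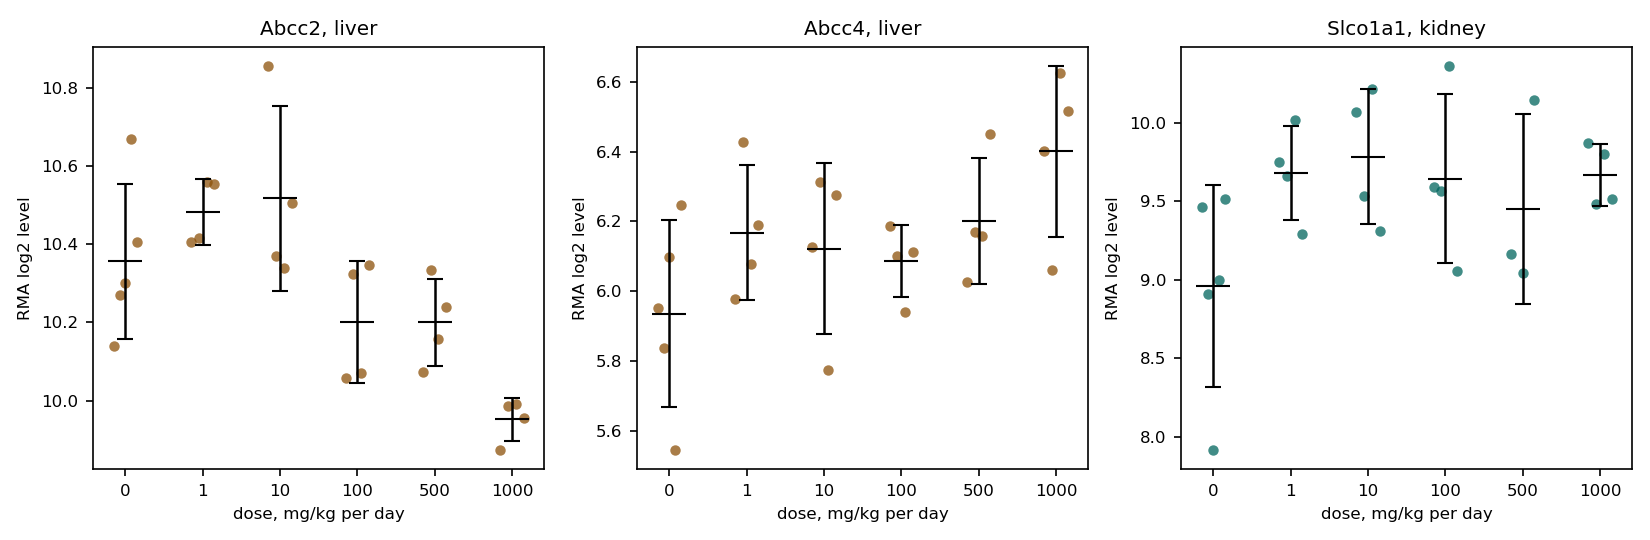
RMA log2 levels of Abcc2 in liver, Abcc4 in liver and Slco1a1 in kidney by dose in mg/kg per day, with 1 point per array and bars for the group mean ± SD; each panel has its own vertical range. The 4 Abcc2 arrays at 1000 mg/kg lie between 9.87 and 9.99, below every control, and 1 of the 5 kidney control arrays of Slco1a1 lies at 7.92, below all others.

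The remaining canalicular pumps showed small differences in liver. Abcb1a encodes a P-glycoprotein that exports many lipophilic drugs, and its probe sets 1370464_at and 1370465_at differed by 0.03 (95% interval -0.25 to 0.32) and -0.0034 (95% interval -0.31 to 0.30) at 1000 mg/kg. The probe set shared by Abcb1a and Abcb1b differed by -0.05. Abcb4, the phosphatidylcholine floppase of bile formation, differed by -0.08 (95% interval -0.39 to 0.22), with 8.68 to 9.49 in controls and 8.65 to 9.26 at 1000 mg/kg. Abcg2, an exporter of sulfates and drugs, differed by -0.01 (95% interval -0.25 to 0.22), with 8.35 to 8.70 in controls and 8.43 to 8.57 at 1000 mg/kg. The controls and the 1000 mg/kg arrays overlapped for all of these probe sets.

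The uptake carriers also missed the threshold in liver. Slco1a1 (Oatp1a1) had levels of 9.85, 9.86, 9.88, 9.93 and 10.00 in controls and 9.80, 9.82, 9.69 and 9.83 at 1000 mg/kg. Every array at 1000 mg/kg lay below every control, but the difference was only -0.12 (95% interval -0.25 to 0.01, adjusted p = 0.575 in limma). Slco1a4 (Oatp1a4) had levels of 10.28, 10.24, 9.90, 10.28 and 10.24 in controls and 10.30, 10.35, 10.39 and 10.39 at 1000 mg/kg by 1387094_at. The 1000 mg/kg arrays all lay above the controls by this probe set, with a difference of 0.17 (95% interval -0.12 to 0.47). By 1387093_at the groups overlapped, with a difference of 0.08 (95% interval -0.17 to 0.34). Without control replicate 3 the differences were 0.10 by 1387094_at and 0.01 by 1387093_at. Slco1b2 (Oatp1b2), a carrier found mainly in liver, differed by -0.08 (95% interval -0.33 to 0.16) and -0.10 (95% interval -0.32 to 0.11) by its probe sets 1369746_a_at and 1387679_at, and its groups overlapped.

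Counted over the 12 probe sets, the 1000 mg/kg liver arrays lay wholly above the controls for 2 (Abcc3 and 1387094_at of Slco1a4), against 2.33% of all probe sets. They lay wholly below for 2 (Abcc2 and Slco1a1), against 1.43% of all probe sets. For the 11 probe sets that were not called, the 95% intervals together ran from -0.63 to 0.75.

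**Figure D3:**
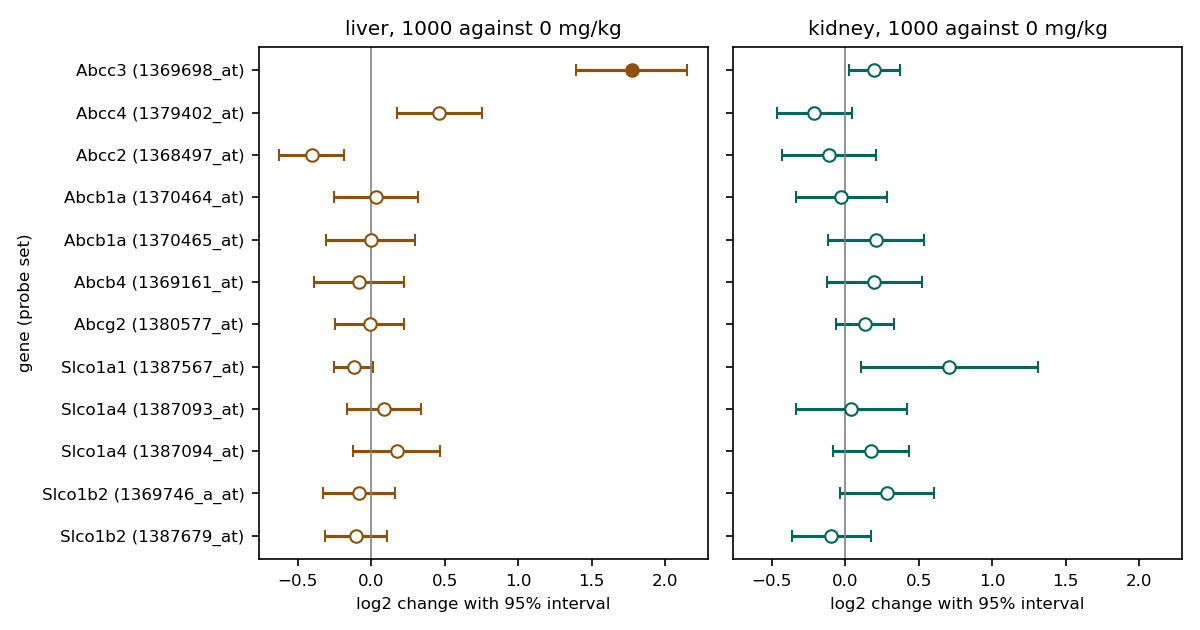
Log2 change at 1000 mg/kg against 0 mg/kg with its 95% interval for the 12 transporter probe sets, in liver (left) and kidney (right); the filled point passed an adjusted p of 0.05 and open points did not. Abcc3 in liver, at 1.77, is the only filled point, and the widest kidney interval is that of Slco1a1, from 0.10 to 1.31.

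In kidney no transporter passed. At 1000 mg/kg 0 of the 12 probe sets were called in limma, where 0.615% of all probe sets were, and 2 had an unadjusted p under 0.05, Abcc3 and Slco1a1, against 10.2% of all probe sets. The median change of the 12 was 0.16, against -0.0026 over all probe sets. All 12 missed the threshold at 1, 10 and 100 mg/kg and between 500 and 1000 mg/kg, where 0.0% of all probe sets passed, at 500 mg/kg, where 0.00322% passed, and for the trend, where 0.58% passed. At an unadjusted p under 0.05 the counts of the 12 were 1 at 1 mg/kg (2.99% of all probe sets), 1 at 10 mg/kg (5.99%), 3 at 100 mg/kg (6.35%), 0 at 500 mg/kg (4.61%), 0 between 500 and 1000 mg/kg (5.42%), and 1 for the trend (9.55%). The kidney arrays differed in adipocyte markers (6 measured), whose average lay more than 0.5 above the control mean in 7 of 24 arrays. Of these 7, 1 was a control, 0 were at 1000 mg/kg and the others were spread over the doses between. Without them, the probe sets called at 1000 mg/kg went from 191 to 84, and still no transporter passed.

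Abcc3 in kidney was at 6.06, 6.17, 6.07, 6.01 and 5.85 in controls and 6.32, 6.13, 6.28 and 6.19 at 1000 mg/kg. Of the latter, 3 arrays lay above the highest control and 1 lay among the controls. The difference was 0.20 (95% interval 0.02 to 0.37, adjusted p = 0.417 in limma). The difference between the organs was tested directly, as the liver change less the kidney change at 1000 mg/kg. For Abcc3 it was 1.58 (95% interval 1.15 to 2.00, adjusted p = 3.73e-05 in limma), and it was the 1 transporter probe set of 12 to pass, against 0.18% of all probe sets. It passed in each of the 28 alternatives run, with values from 1.44 to 1.75. The same contrast was 0.68 for Abcc4 (95% interval 0.29 to 1.06, adjusted p = 0.168) and -0.83 for Slco1a1 (95% interval -1.45 to -0.21, adjusted p = 0.363), neither called.

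Slco1a1 in kidney, where it takes up organic anions in the tubule, was the transporter with the widest spread. Its levels were 9.46, 8.91, 7.92, 9.00 and 9.52 in controls, 9.75, 9.66, 10.02 and 9.29 at 1 mg/kg, and 10.07, 9.54, 10.22 and 9.31 at 10 mg/kg. They were 9.59, 9.57, 10.36 and 9.05 at 100 mg/kg, 9.16, 9.04 and 10.15 at 500 mg/kg, and 9.87, 9.48, 9.80 and 9.52 at 1000 mg/kg. Every dosed group overlapped the controls, and control replicate 3 was the lowest kidney array. The differences from the shared controls were 0.72, 0.82, 0.68, 0.49 and 0.71 from 1 to 1000 mg/kg, in no order of dose, and none passed (adjusted p = 0.387 at 1000 mg/kg in limma). Without control replicate 3, the difference at 1000 mg/kg was 0.45 (adjusted p = 0.731).

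Abcc4 in kidney was at 8.71, 8.61, 9.08, 8.78 and 8.48 in controls and 8.38, 8.42, 8.61 and 8.67 at 1000 mg/kg, a difference of -0.21 (95% interval -0.47 to 0.05, adjusted p = 0.621 in limma). Abcc2 differed there by -0.12 (95% interval -0.43 to 0.20), and by -0.21 to -0.02 when single arrays were left out. Both pairs of groups overlapped. Abcg2 in kidney was at 10.48, 10.33, 10.56, 10.57 and 10.48 in controls and 10.70, 10.60, 10.76 and 10.74 at 100 mg/kg. All 4 arrays at 100 mg/kg lay above the controls, as for 0.615% of all probe sets at that dose, but at 1000 mg/kg the levels of 10.63, 10.29, 10.94 and 10.61 overlapped them (difference 0.13, 95% interval -0.06 to 0.33, and 0.03 to 0.24 when single arrays were left out). Slco1a4 by 1387093_at was at 5.50, 5.91, 5.66, 5.69 and 5.48 in kidney controls and 4.99, 5.57, 5.67 and 4.57 at 100 mg/kg, and it did not pass (difference -0.44, adjusted p = 0.761). The low values were 2 of the 4 arrays, and at 1000 mg/kg the difference was 0.04.

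**Figure D4:**
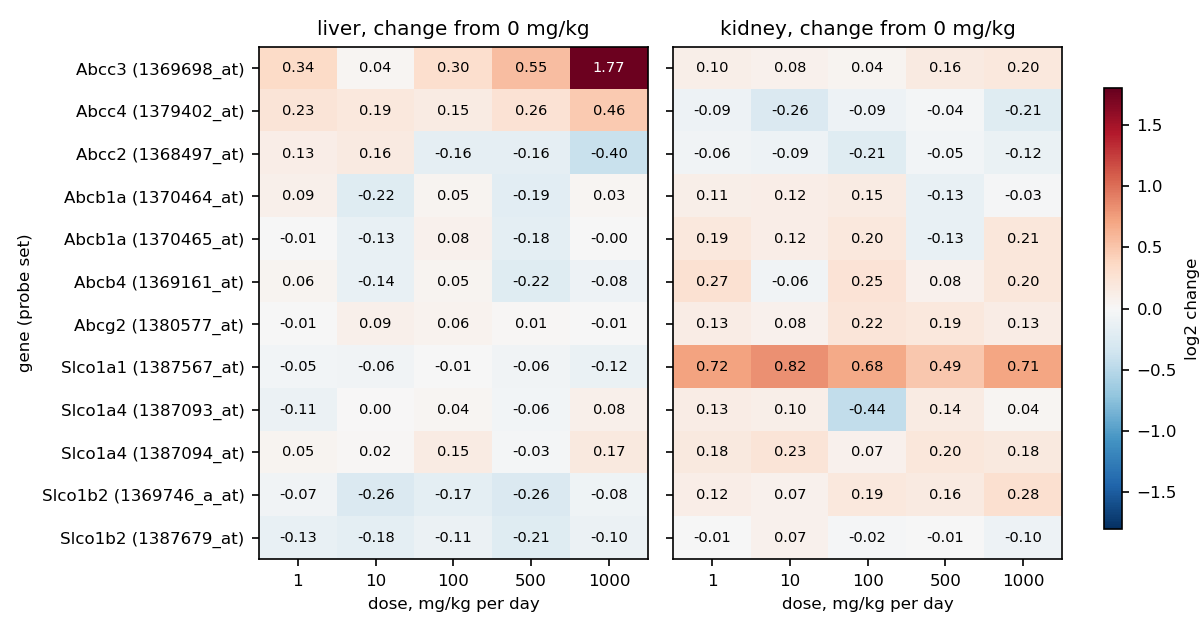
Log2 change from 0 mg/kg (colour and printed value) of the 12 transporter probe sets (rows) at each dose in mg/kg per day (columns), in liver and kidney. Abcc3 in liver is 0.55 at 500 and 1.77 at 1000 mg/kg, and Slco1a1 in kidney lies between 0.49 and 0.82 at all doses, all measured against the same 5 control arrays.

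Abcb1a, Slco1a4 and Slco1b2 each had a pair of probe sets, whose levels were compared over the arrays. Over the 25 liver arrays the pairs moved together, with Pearson r of 0.754 (Spearman rho 0.769) for Abcb1a, 0.908 (0.788) for Slco1a4 and 0.707 (0.716) for Slco1b2. The largest permutation p of the 3 liver pairs, two-sided, was 9e-05, or 1.8e-04 adjusted over the 6 pairs tested. This p concerns a correlation of 0 only. Pairs of probe sets from different genes were not compared. The values therefore cannot tell agreement on a gene from shifts that several genes share on an array. Without the 2 arrays farthest from the median, r was 0.802, 0.877 and 0.615. Over the 24 kidney arrays r was 0.701 (rho 0.664, adjusted permutation p = 1.8e-04) for Abcb1a, and 0.676 without the 2 farthest arrays. For Slco1a4 it was 0.275 (rho 0.337, adjusted permutation p = 0.233) and for Slco1b2 0.084 (rho 0.199, adjusted permutation p = 0.697) in kidney. These pairs held dim kidney probe sets. Mean levels were 2.39 for 1387679_at and 3.42 for 1369746_a_at of Slco1b2, and 3.16 for 1387094_at of Slco1a4. Only 1.3%, 18.2% and 13.1% of all probe sets lay lower. The part of low signal in the weak correlations was not tested.

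The genes whose liver levels followed Abcc3 most closely over the 25 arrays were Ces2c (a carboxylesterase, r = 0.863), Glyatl2 (r = 0.827), Pcsk6 (a proprotein convertase, r = 0.819), Gsta3 (a glutathione S-transferase, r = 0.811) and Cyp3a23-3a1 (a cytochrome P450, r = 0.810). Over the 21 arrays below 1000 mg/kg the same pairs gave r of 0.399, 0.382, 0.497, 0.551 and 0.529. All 5 coefficients were lower without the 1000 mg/kg group.

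Other transporters showed few changes. Of the other ABC transporters, 28 of 32 listed genes were measured, and in liver at 1000 mg/kg 1 rose and 1 fell in limma, where 0.226% and 0.0741% of all probe sets did. Their median change was -0.02. Abcb6, a porphyrin transporter, rose from 8.52 ± 0.02 (SD, n = 5) to 8.85 ± 0.11 (SD, n = 4), a difference of 0.33 (adjusted p = 0.0286). Abca8a, an ABCA-family lipid transporter, fell: its mean was 9.98 ± 0.14 (SD, n = 5) in controls and 9.62 ± 0.05 (SD, n = 4) at 1000 mg/kg (difference -0.36, adjusted p = 0.0453). Both calls were close to the threshold. Abcb6 was called in 10 of 18 alternatives and lost without control replicates 1, 2, 3 or 4 or 1000 mg/kg replicates 1 or 3, with adjusted p from 0.0512 to 0.167. Abca8a was called in 7 of 18 and lost without any 1 array except control replicate 1, with adjusted p from 0.0694 to 0.139. Abcc6 (-0.21, adjusted p = 0.392) and the cholesterol exporter Abca1 (-0.52, adjusted p = 0.464) had the next smallest p and were not called.

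Of the other organic anion, cation and bile acid carriers, 29 of 32 were measured, and 0 rose and 1 fell in liver, where 0.226% and 0.0741% of all probe sets did, with a list median of 0.05. Slc22a8 (Oat3), an organic anion carrier, fell as well: its mean was 10.08 ± 0.12 (SD, n = 5) in controls and 9.48 ± 0.36 (SD, n = 4) at 1000 mg/kg (difference -0.60, adjusted p = 0.0277 in limma). Its other probe set differed by -0.76 (adjusted p = 0.0591). The Slc22a8 call held in 11 of 18 alternatives and was lost without control replicates 1, 2, 3 or 4 or 1000 mg/kg replicates 2 or 3, with adjusted p from 0.0515 to 0.159. Slc22a3 (-0.39, adjusted p = 0.174), Slc29a2 (0.29, adjusted p = 0.465) and Slc16a1 (-0.32, adjusted p = 0.538) were not called. In kidney at 1000 mg/kg 0 genes of either list were called in limma, where 0.615% of all probe sets were. An unadjusted p under 0.05 was reached by 7 of the 28 and 6 of the 29 genes, against 10.2% of all probe sets.

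Of the regulators and scaffolds of these transporters, 16 of 17 were measured and 0 were called in liver at 1000 mg/kg in limma, where 0.3% of all probe sets were. An unadjusted p under 0.05 was reached by 2 of the 16, against 9.53% of all probe sets. Rxra, the partner of PXR and CAR, differed by 0.49 (95% interval 0.22 to 0.77, adjusted p = 0.137), Keap1, the inhibitor of Nrf2, by 0.17 (adjusted p = 0.375), CAR (Nr1i3) by 0.64 (95% interval -0.01 to 1.28, adjusted p = 0.534) and Ahr by -0.20 (adjusted p = 0.571). Of the induction markers, 10 of 13 were measured, 2 rose in liver at 1000 mg/kg and 0 fell, where 0.226% and 0.0741% of all probe sets did, with a list median of 0.27. All 10 had higher means in liver, and 5 had an unadjusted p under 0.05 in limma, against 9.53% of all probe sets. Nqo1, a quinone reductase controlled by Nrf2, rose 2.51-fold from 7.29 ± 0.27 (SD, n = 5) to 8.62 ± 0.15 (SD, n = 4) (adjusted p = 5.3e-06), and was called at 500 mg/kg too (adjusted p = 0.005). Cyp3a23-3a1, a P450 controlled by PXR, rose 1.79-fold from 12.19 ± 0.21 (SD, n = 5) to 13.04 ± 0.14 (SD, n = 4) (adjusted p = 0.00445). Both rose in all 18 alternatives. In kidney at 1000 mg/kg 0 of the regulators and 0 of the induction markers were called in limma, where 0.615% of all probe sets were. An unadjusted p under 0.05 was reached by 4 of the 16 and 3 of the 10, against 10.2% of all probe sets. The kidney changes of the 10 induction markers ran from -0.16 to 2.12 on the log2 scale, with 6 of them higher, so the largest was sizeable though not called.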

How the data were processed

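The deposited table holds RMA log2 values per probe set, per the submitters' processing notes and the range of the values. RMA's version, and whether liver and kidney arrays were normalised together, are not given in the sources used here. RMA subtracts background, quantile-normalises and summarises probes, so it can compress changes of dim probe sets. The 57 control probe sets were left out. Of the other 31042, 20826 have 1 gene symbol in the platform annotation, 436 several and 9780 none.

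Each organ was fitted with limma 3.58.1 in R 4.3.3, with 1 mean per dose group, all arrays of the organ, moderated variances and Benjamini-Hochberg adjustment over all 31042 probe sets. Trends used dose rank, and the organ contrast used all 49 arrays, treated as independent. Genes on companion lists were represented by their brightest probe set, and those named were the ones called or the up to 4 with the smallest p in liver. Likeness to Abcc3 was ranked by Pearson r over the 25 liver arrays. Probe sets with several symbols or none, and symbols starting LOC, RGD, MGC or AABR, were left out of that ranking. The members and lists were chosen with earlier results of these data known. Precision is limited by the 3 to 5 arrays per group. Alternatives covered gene-level values, dim probe sets, normalisation, variance moderation, weighting of arrays, blocking on replicate number, adipocyte markers and single arrays. Of pairs with the same replicate number, 6 of 60 in liver and 22 of 55 in kidney deviated together beyond a correlation of 0.1. The median correlation in kidney was 0.0609 for these pairs and -0.03 for other numbers. In liver it was 5e-04 and -0.0038. Between liver and kidney, 24 pairs had a median of 0.0868, from -0.0654 to 0.2339. These values do not decide whether equal numbers mark paired samples, least of all in kidney. The main fits did not pair samples by number.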

Additional observations from a re-analysis of the deposited data

Results flagged for a closer look

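The liver change of Abcc3 at 1000 mg/kg exceeded its kidney change by 1.58 on the log2 scale, a difference between organs that was tested directly (adjusted p = 3.73e-05, limma). In liver all 4 arrays at 1000 mg/kg lay above the controls, and in kidney 3 of 4 did.

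Control replicate 3 stood apart for Slco1a4 in liver by both probe sets. It was at 11.75 where the other 4 controls were at 12.06 to 12.16 (1387093_at), and at 9.90 where the others were at 10.24 to 10.28 (1387094_at). Without it, the liver differences at 1000 mg/kg went from 0.08 to 0.01 (1387093_at) and from 0.17 to 0.10 (1387094_at), none called. The same animal's array supplies both values, and 2 of 132 groups examined had such an array, where chance gives about 1 in 20.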

How the results depend on the processing

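The rise of Abcc3 in liver at 1000 mg/kg was called in all 18 alternatives (1.64 to 1.95, adjusted p 6.39e-07 to 0.0291, the highest when only the control and top-dose arrays were fitted). The count of transporter probe sets called in that comparison went from 1 to 2, with Abcc2 lower, among brighter probe sets only and with a variance trend, and stayed at 1 without any single array. Between 1000 and 500 mg/kg in liver the count went from 0 to 1, Abcc3, with gene-level values (highest probe set or mean), brighter probe sets, median-centred arrays, a variance trend, array weights and the replicate block, and ranged from 0 to 1 without single arrays. For the liver trend it went from 1 to 2, with Abcc2 lower, at gene level (both ways), with brighter probe sets and with a variance trend, and ranged from 0 to 2 without single arrays. The replicate block gave 1.95 for Abcc3 and changed no other count of transporter calls, though Abcb6 (adjusted p = 0.0761) and Abca8a (adjusted p = 0.117) lost their calls. Number 5 occurred only among the controls, so within an organ this block in effect left out control replicate 5. For Abcc3 in liver that array was the highest control, at 6.09, and leaving it out alone also gave 1.95.

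Uncalled differences near 0 changed sign. In liver, Abcb1a by 1370465_at was 0.011 with centred arrays and 0.0683 with the replicate block. By 1370464_at it was -0.0073 after quantile normalisation and -0.0119 with array weights, while Abcg2 was 0.0024 with centred arrays. In kidney, Abcb1a by 1370464_at was 0.0249 and Slco1a4 by 1387093_at -1e-04 with the block. A gene mean averages the probe sets of a gene, so it is not a value of either. For Abcb1a in liver it was 0.0138 (0.0311 by 1370464_at, -0.0034 by 1370465_at). In kidney it was 0.0907 for Abcb1a (-0.027 by 1370464_at, 0.2085 by 1370465_at) and 0.0933 for Slco1b2 (0.2829 by 1369746_a_at, -0.0962 by 1387679_at). Without single arrays, the liver differences ranged from -0.0486 to 0.072 (Abcb1a, 1370464_at), -0.1229 to 0.0778 (Abcb1a, 1370465_at), -0.1831 to 0.025 (Abcb4), -0.0448 to 0.0405 (Abcg2) and -0.1346 to 0.0023 (Slco1b2, 1369746_a_at), and the kidney ones from -0.1488 to 0.0423 (Abcb1a, 1370464_at), -0.0029 to 0.3411 (Abcb4) and -0.0579 to 0.1795 (Slco1a4, 1387093_at).

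Quantile normalisation moved the liver split at 1000 mg/kg from 70 higher and 23 lower to 66 and 44, and centring to 72 and 18. In kidney the split went from 61 and 130 to 69 and 120, and to 62 and 123. In the organ contrast it went from 33 and 23 to 26 and 26, and to 35 and 21. The cause of these shifts was not tested. All probe sets called in liver at 1000 mg/kg rose in number from 93 to 244 among brighter probe sets, 205 with a variance trend and 163 with array weights, and fell to 29 when only those groups were fitted; 149 genes were called with their highest probe set. In kidney they went from 191 to 290 with the replicate block, 83 when only those groups were fitted and 84 without the arrays high in adipocyte markers, with 0 transporters in each.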
